A study of Mus musculus with 2 samples.

Results

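The genes of central carbon metabolism were examined in mouse embryonic stem (ES) cells in suspension: the enzymes of glycolysis, of the pyruvate dehydrogenase step, of the pentose phosphate pathway and of the tricarboxylic acid (TCA) cycle. They were chosen by name from a fixed list, and all 52 were found among the 14261 rows of the deposited RNA-seq table. The list held 19 glycolytic genes, 6 of the pyruvate dehydrogenase step, 7 of the pentose phosphate pathway and 20 of the TCA cycle. One culture of TRE-ESC cells received doxycycline (dox), an inducer of tetracycline-controlled transgenes. The other culture had no dox. Both were grown in dishes of low adsorption in N2B27 medium with the kinase inhibitor mix 2i and the cytokine LIF, and both were labelled 36 h. The study asks how such cells respond to induced c-Jun, and Jun RNA was listed at 3821 with dox and at 55 without dox. Details of the transgene, its promoter and the number of clones are not stated in the sources. With 1 library per group there were no replicates, so no difference below was tested and none has a spread between cultures.

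Glycolysis splits glucose to pyruvate in the cytosol, and lactate dehydrogenase can turn that pyruvate into lactate. The pyruvate dehydrogenase complex instead turns it into acetyl-CoA, which the TCA cycle oxidises in the mitochondrion. The pentose phosphate pathway branches off at glucose phosphate and yields NADPH and the ribose of nucleotides. Naive mouse ES cells are known to use both glycolysis and mitochondrial respiration, and to lean more on glycolysis as they leave the naive state.

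Values are the authors' whole numbers on a normalized scale. Both libraries shared their quartiles of 14, 62 and 184 and their maximum of 14907, so a value follows the rank of a gene and sequencing depth is unknown. Ratios are of dox over no dox, each value plus a pseudocount of 10. Genes were compared where the larger value was at least 50, which 8547 genes and 49 of the 52 members reached. Of ES cell markers 10 of 10 reached it, with sums of 11375 with dox and 18121 without dox. By 2-fold or more 7 were lower with dox and 0 higher, against 5.49% and 9.23% of all genes compared. Those with the largest values, Dppa5a and Pou5f1, differed less, at 3818 and 3572 with dox and 4342 and 3230 without dox. None of the 10 fibroblast or the 4 listed primitive endoderm markers reached the floor of 50 (0 of each). The fibroblast markers summed to 80 with dox and 33 without dox, and Dcn, Lum and Fap were listed at 0 in both. With dox the largest were Col3a1, at 39 with dox and 2 without dox, and Col1a2, at 19 and 8. Postn, at 8 with dox and 11 without dox, and Pdgfrb, at 2 and 6, went the other way. The 4 endoderm markers summed to 25 with dox and 24 without dox. The 7 listed trophectoderm markers summed to 585 with dox and 224 without dox, with Krt7 at 374 and 0. Also higher with dox were Cdx2 (34 and 28), Ascl2 (23 and 4), Hand1 (17 and 0) and Gata3 (6 and 1). Tfap2c (113 and 159) and Eomes (18 and 32) were lower with dox. The 6 blood and endothelial markers summed to 445 with dox and 285 without dox. Csf1r (111 and 1), Cd68 (96 and 19), Ptprc (19 and 0) and Tek (64 and 52) were higher with dox. Pecam1 (152 and 205) and Kdr (3 and 8) were lower. The part of these cells in the results below was not tested. In bulk RNA, fewer cells of a type and less RNA per cell cannot be told apart.

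Most of these metabolic genes had similar values in both cultures. At 2-fold or more, 2 of the 49 members were higher with dox (4.08%, against 9.23% of all genes compared) and 2 were lower (4.08%, against 5.49%). The higher ones were Pfkfb3 and Gapdh, and the lower ones were Ldhb and Pcx. At 1.5-fold, 5 members were higher (10.2%, against 16.7% of all genes) and 7 lower (14.3%, against 17.7%). Hk2, Pgk1 and Dlst joined the higher ones, and Rpia, Rpe, Suclg2, Sdhd and Idh3g the lower ones. The remaining 37 members compared were within 1.5-fold. With so few members called, these shares are close to those of all genes and nothing is read from their difference.

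**Figure D1:**
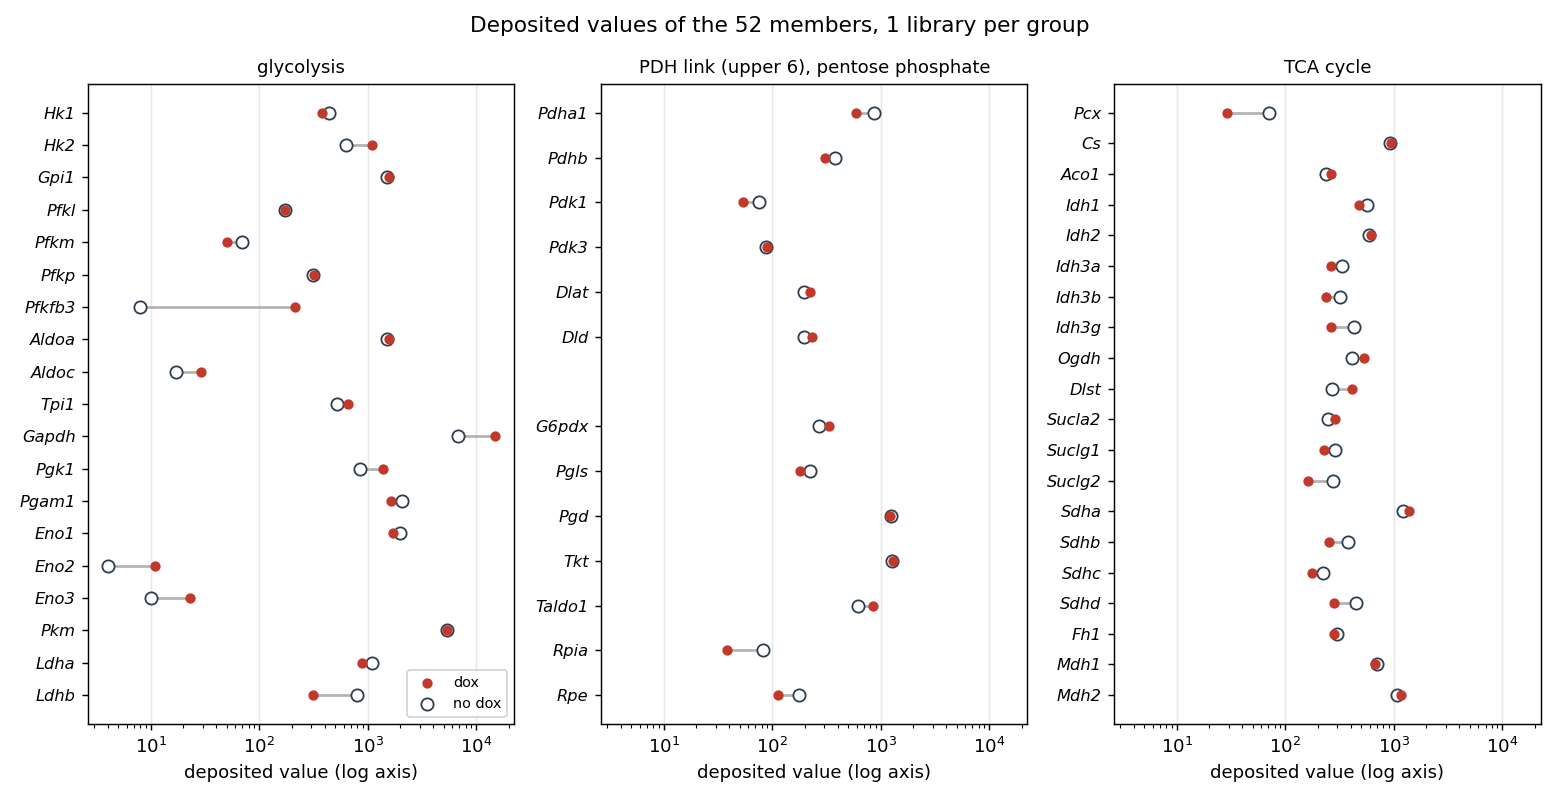
Deposited value of each of the 52 members (log axis, 1 point per library) with dox (filled) and without dox (open), in the order of the pathway. Pfkfb3 has the widest gap, at 214 with dox and 8 without dox, and Gapdh reaches the highest value of the table, 14907, with dox.

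Pfkfb3 had the largest difference of all members. It encodes a bifunctional enzyme whose kinase activity makes the fructose bisphosphate that switches on phosphofructokinase, and so speeds glycolysis. Pfkfb3 was listed at 214 with dox and 8 without dox, 12.4-fold higher. It lies on chromosome 2 from 11471433 to 11554077, minus strand (GRCm38, the assembly called mm10). Since the value without dox was close to 0, the log2 ratio of 3.64 depends on the pseudocount, and it was 4.58 with 1 and 2.19 with 50.

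The other genes of this enzyme family, taken from a list of further paralogs, had larger values with dox too. Pfkfb4 was listed at 132 with dox and 12 without dox, and Pfkfb2 at 96 and 37. Pfkfb1, within 2-fold, stood at 53 with dox and 41 without dox, a small difference close to the floor (log2 ratio 0.30). Like Pfkfb3, these genes reached the floor of the comparison only with dox. Their shared direction is therefore not independent of that floor.

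RefSeq (GRCm38.p6) gives Pfkfb3 a pair of start sites, and the 300 bases around each (250 before, 50 after) are printed since no other member differed as much. Capitals mark NACGTG, the letters at the core of hypoxia response elements, and CACGTG, the E-box, which also holds NACGTG.
Pfkfb3, chr2:11553880-11554179 (minus strand): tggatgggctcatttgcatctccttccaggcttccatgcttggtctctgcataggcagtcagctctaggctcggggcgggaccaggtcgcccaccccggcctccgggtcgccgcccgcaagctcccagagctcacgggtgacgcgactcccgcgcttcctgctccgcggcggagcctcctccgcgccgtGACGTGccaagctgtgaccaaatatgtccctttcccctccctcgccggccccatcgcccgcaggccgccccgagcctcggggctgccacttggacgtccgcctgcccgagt
Pfkfb3, chr2:11502041-11502340 (minus strand): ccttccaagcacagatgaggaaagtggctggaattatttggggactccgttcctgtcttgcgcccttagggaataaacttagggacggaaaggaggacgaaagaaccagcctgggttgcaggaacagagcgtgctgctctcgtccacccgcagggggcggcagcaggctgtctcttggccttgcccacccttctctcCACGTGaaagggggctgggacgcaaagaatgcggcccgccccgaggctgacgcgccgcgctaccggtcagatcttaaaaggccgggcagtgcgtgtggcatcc
The match begins 61 bases before the upstream start and 53 bases before the other, where it is also an E-box. Searched on both strands, NACGTG was in 38.0% of the 71 RefSeq promoters of 50 members and in 19.6% of all 32851 promoters, and CACGTG in 9.86% and 7.15%. Member promoters had a median GC content of 60.7%, against 52.7% for all, and both motifs hold a CG. The AP-1 letters TGANTCA were in 1.41% of member promoters, a single one at Aldoa, and in 7.81% of all. Aldoa itself stood at 1569 with dox and 1493 without dox. Such matches describe letters in a window and are not binding sites.

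Gapdh, the glyceraldehyde phosphate dehydrogenase of the pay-off phase, was listed at 14907 with dox and 6781 without dox, 2.20-fold higher. It lies on chromosome 6 from 125161715 to 125166467, minus strand. These values sit on steps of the scale. In both libraries the 10 highest genes all had 14907 and the next 10 had 6787 to 6778. Gapdh belonged to the first set with dox and to the second without dox, so its ratio is the gap between both steps and does not measure how far its RNA differed. Transcripts of 86 other genes matched Gapdh at 95% identity or more over at least 500 nt, and of these only Gm3839, at 33 with dox and 29 without dox, was among the rows. How reads shared with such copies were assigned is not stated in the sources.

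Gapdh also set the total of the route. The values of all 19 glycolytic genes summed to 32273 with dox and 24075 without dox, of which Gapdh made up 46.2% and 28.2%. The other 18 summed to 17366 with dox and 17294 without dox. Pkm, which encodes the pyruvate kinase that ends glycolysis, had 5337 in both libraries, within the third step of 10 genes, which ran from 5344 to 5325.

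The promoter of Gapdh, with the same letters in capitals, holds NACGTG on the opposite strand from 43 bases past the start.
Gapdh, chr6:125165724-125166023 (minus strand): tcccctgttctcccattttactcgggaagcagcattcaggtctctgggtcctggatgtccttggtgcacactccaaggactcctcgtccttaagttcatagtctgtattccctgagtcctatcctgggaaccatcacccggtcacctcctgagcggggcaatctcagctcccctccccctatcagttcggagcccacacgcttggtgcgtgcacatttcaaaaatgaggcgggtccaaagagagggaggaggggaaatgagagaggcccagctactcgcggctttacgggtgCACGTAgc

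At the entry of glycolysis the hexokinases, which trap glucose as its phosphate, differed from each other. Hk2 was listed at 1101 with dox and 631 without dox (log2 ratio 0.79), and Hk1 at 379 and 441 (−0.21). The ratio of Hk2 to Hk1 values was therefore 2.90 with dox and 1.43 without dox. Of the phosphofructokinases, which commit sugar to glycolysis, Pfkl stood at 172 with dox and 173 without dox and Pfkp at 317 and 316, near equal in both cultures. The muscle-type Pfkm stood at 50 with dox and 70 without dox (−0.42).

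Further down the pathway the enzymes did not share a direction. Pgk1, the first enzyme that yields ATP, was listed at 1393 with dox and 853 without dox (log2 ratio 0.70), and Tpi1, the triose phosphate isomerase, at 659 and 523 (0.33). Pgam1, which moves the phosphate of phosphoglycerate, stood at 1651 with dox and 2060 without dox (−0.32). Gpi1, the isomerase of glucose phosphate, had 1567 with dox and 1492 without dox, close to the ratio of Aldoa, the main aldolase. Pgk1-rs7, a near-identical relative of Pgk1, had 100 with dox and 189 without dox.

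Eno1, the main enolase, stood at 1700 with dox and 1985 without dox, a log2 ratio of −0.22. Its near-identical copy Eno1b stood at 2670 and 2504, and the sum of both was 4370 with dox and 4489 without dox (−0.04). A split of reads between these copies cannot be told apart from a difference between the cultures. The tissue-restricted paralogs Aldoc, Eno2 and Eno3 were under the floor of 50, with 29, 11 and 23 with dox and 17, 4 and 10 without dox.

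Ldhb had the lowest ratio of the members as deposited. It encodes the H subunit of lactate dehydrogenase, common in oxidative tissues, and was listed at 312 with dox and 795 without dox, 2.50-fold lower. Ldhb lies on chromosome 6 from 142490249 to 142507957, minus strand. Ldha, which encodes the M subunit typical of glycolytic tissues, stood at 882 with dox and 1086 without dox (log2 ratio −0.30). The ratio of Ldha to Ldhb values was 2.83 with dox and 1.37 without dox. Ldhb has a short transcript, and with the trend of ratios on transcript length removed its log2 ratio was −0.97, just within 2-fold, and Pcx was then the lowest, at −1.005. The promoter of Ldhb holds none of the 3 motifs, while the first promoter of Pcx, also lower with dox, holds NACGTG and CACGTG.
Ldhb, chr6:142507908-142508207 (minus strand): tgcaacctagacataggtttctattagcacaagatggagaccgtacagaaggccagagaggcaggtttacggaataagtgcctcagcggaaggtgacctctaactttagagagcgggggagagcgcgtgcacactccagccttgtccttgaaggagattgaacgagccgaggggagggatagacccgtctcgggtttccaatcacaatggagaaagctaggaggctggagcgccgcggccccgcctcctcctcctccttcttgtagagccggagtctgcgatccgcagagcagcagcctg

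**Figure D2:**
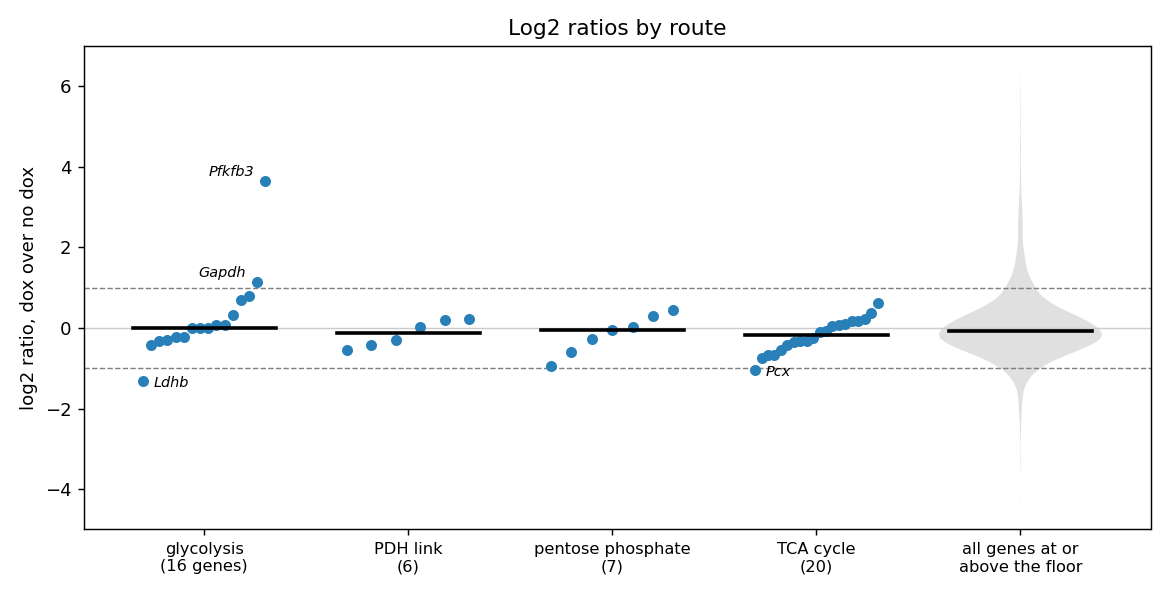
Log2 ratio (dox over no dox) of the 49 members compared, 1 point per gene, beside the distribution of all 8547 genes (grey shape). Thick bars are medians and dashed lines mark 2-fold. Pfkfb3 and Gapdh lie above the upper line, and Ldhb and Pcx below the lower one.

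At the pyruvate dehydrogenase step, the gate from glycolysis to the TCA cycle, all 6 members were within 1.5-fold. Of all genes compared, 16.7% were higher and 17.7% lower by 1.5-fold or more, so with 6 genes nothing is read from this count. Pdha1 and Pdhb, which encode the E1 subunits that act on pyruvate first, stood at 591 and 309 with dox, against 864 and 381 without dox. Dlat and Dld, the E2 and E3 subunits, stood at 224 and 231 with dox, against 195 and 197 without dox. These ratios were small, from −0.54 for Pdha1 to 0.22 for Dld on the log2 scale. Pdhx, from the list of further paralogs, encodes a protein that holds E3 on E2 and stood at 110 with dox and 132 without dox (−0.24). Pdk1, whose kinase switches the complex off, had 54 with dox and 76 without dox, and its paralog Pdk3 had 90 and 88. Of their relatives outside the list, Pdk2 and Pdk4 were under the floor, at 1 and 12 with dox and 10 and 22 without dox. The phosphatase gene Pdp2, which acts against these kinases, stood at 131 with dox and 265 without dox (−0.96).

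In the pentose phosphate pathway 0 of 7 genes passed 2-fold in either direction, beside 9.23% of all genes higher and 5.49% lower. In the oxidative branch G6pdx, the rate-limiting dehydrogenase, stood at 330 with dox and 268 without dox (log2 ratio 0.29). Pgls, the lactonase, had 182 with dox and 224 without dox (−0.29), and Pgd, the second NADPH-yielding enzyme, 1207 and 1245 (−0.04).

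The other branch rearranges sugars. Its ribose phosphate isomerase gene Rpia was listed at 38 with dox and 83 without dox (−0.95), and the epimerase gene Rpe at 113 and 177 (−0.60). Taldo1 and Tkt, the transaldolase and transketolase that return carbon to glycolysis, stood at 854 and 1292 with dox, against 620 and 1271 without dox. Exons of Rpe overlap those of Kansl1l on the opposite strand, which had 55 with dox and 68 without dox.

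In the TCA cycle 0 of 20 genes were higher by 2-fold or more with dox, beside 9.23% of all genes. By the same threshold 1 was lower, near the 5.49% of all genes. Pcx, the pyruvate carboxylase that refills the cycle with oxaloacetate, was listed at 29 with dox and 71 without dox, 2.08-fold lower. Pcx lies on chromosome 19 from 4510472 to 4621752, plus strand. Its values are low and its log2 ratio of −1.05 was −0.62 with a pseudocount of 50. The first of its RefSeq promoters holds NACGTG 248 and 141 bases before the start, the match at 248 also being an E-box, and is printed beside the second, which holds none of the motifs.
Pcx, chr19:4510222-4510521 (plus strand): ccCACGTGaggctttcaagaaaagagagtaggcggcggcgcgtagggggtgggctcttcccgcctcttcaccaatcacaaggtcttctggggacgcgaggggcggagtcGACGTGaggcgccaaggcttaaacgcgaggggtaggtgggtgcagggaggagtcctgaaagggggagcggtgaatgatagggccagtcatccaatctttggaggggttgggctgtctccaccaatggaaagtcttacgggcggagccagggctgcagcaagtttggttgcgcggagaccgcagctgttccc
Pcx, chr19:4594069-4594368 (plus strand): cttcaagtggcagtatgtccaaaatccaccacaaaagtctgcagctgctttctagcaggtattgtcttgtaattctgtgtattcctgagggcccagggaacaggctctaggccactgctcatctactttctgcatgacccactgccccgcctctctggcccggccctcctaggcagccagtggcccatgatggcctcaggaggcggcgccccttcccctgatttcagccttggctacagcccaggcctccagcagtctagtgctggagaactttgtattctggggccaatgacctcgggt

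The first steps of the cycle differed little, apart from the NAD-linked isocitrate dehydrogenase. Cs, the citrate synthase, stood at 948 with dox and 923 without dox. Aco1, the cytosolic aconitase, had 264 with dox and 235 without dox. The 3 subunit genes of isocitrate dehydrogenase that uses NAD were all lower with dox. Idh3a had 264 with dox and 336 without dox, Idh3b 237 and 322, and Idh3g 264 and 426, with log2 ratios of −0.34, −0.43 and −0.67. With the length trend removed these were smaller, at −0.16, −0.20 and −0.45. The NADP-linked enzymes had 620 with dox and 587 without dox for the mitochondrial Idh2, and 475 and 571 for the cytosolic Idh1. Exons of Idh3b overlap those of Nop56 on the opposite strand, which had 787 with dox and 1569 without dox, and the library kit is not stated to keep strand.

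The oxoglutarate dehydrogenase complex is built like pyruvate dehydrogenase and shares its E3 subunit Dld. The genes of its other subunits had the highest ratios of the cycle. Dlst, its E2 subunit, was listed at 414 with dox and 267 without dox (log2 ratio 0.61), and Ogdh, its E1 subunit, at 533 and 408 (0.38). The next enzyme, succinyl-CoA ligase, pairs Suclg1 with either of a pair of alternative subunits. Sucla2, which gives the ATP-forming enzyme, had 290 with dox and 246 without dox (0.23). Suclg2, which gives the GTP-forming enzyme, had 162 with dox and 278 without dox (−0.74). The ratio of Sucla2 to Suclg2 values was 1.79 with dox and 0.885 without dox. Suclg1 itself had 229 with dox and 290 without dox (−0.33).

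Succinate dehydrogenase, which also serves as complex II of the respiratory chain, split by subunit. Sdha, the flavin subunit that oxidises succinate, stood at 1391 with dox and 1223 without dox (log2 ratio 0.18). The iron-sulphur subunit gene Sdhb stood at 254 with dox and 377 without dox (−0.55). The membrane anchors followed Sdhb, Sdhc with 175 with dox and 223 without dox (−0.33) and Sdhd with 280 and 452 (−0.67). Transcripts of Sdhb and Sdhd are short, at 1232 and 1231 nt, and with the length trend removed their ratios were −0.19 and −0.31. The last steps were near equal. Fh1, the fumarase, had 279 with dox and 300 without dox, the cytosolic malate dehydrogenase gene Mdh1 669 and 703, and the mitochondrial Mdh2 1156 and 1071.

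**Figure D3:**
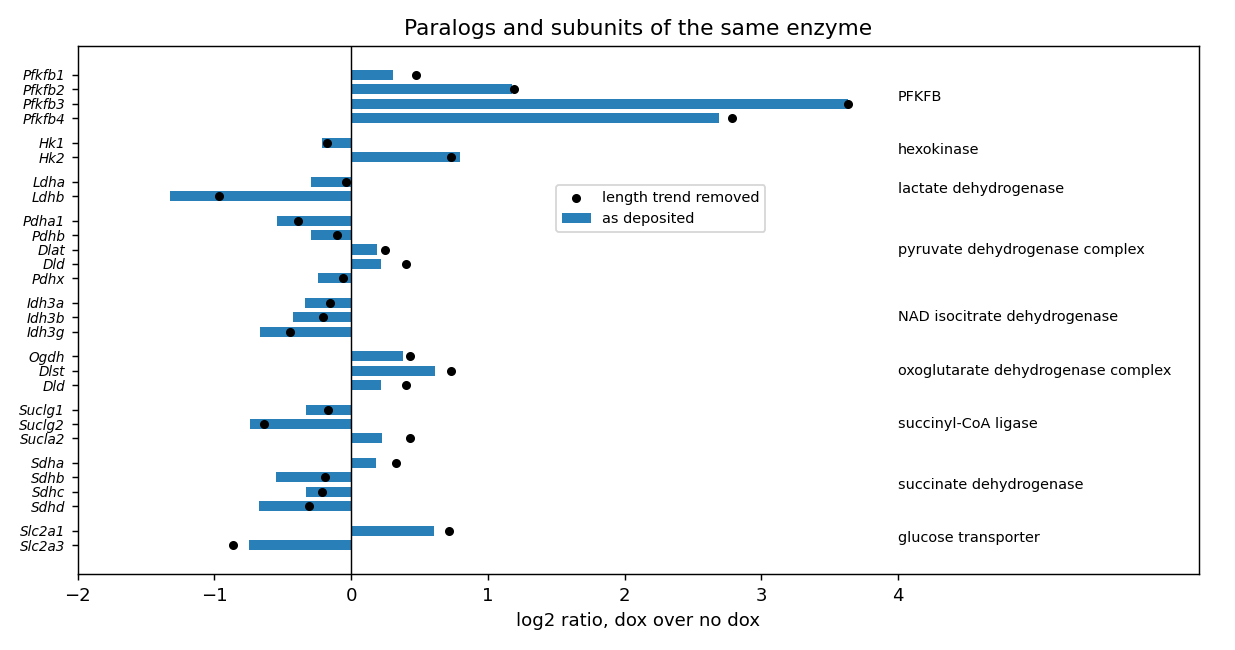
Log2 ratio (dox over no dox) of paralogs or subunits of the same enzyme, as deposited (bars) and with the trend on transcript length removed (dots). The paralogs of hexokinase, lactate dehydrogenase and glucose transporter genes part from each other in both measures, as do Sucla2 (0.23) and Suclg2 (−0.74).

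Across the routes, the median log2 ratio was 0.00 for glycolysis (16 genes compared), −0.13 for the pyruvate dehydrogenase step (6), −0.04 for the pentose phosphate pathway (7) and −0.18 for the TCA cycle (20), beside −0.08 for all genes. Glycolysis thus stood 0.18 above the TCA cycle and the pentose phosphate pathway 0.14 above it, both small beside the quartiles of all genes, −0.44 and 0.34. In the TCA cycle 12 of 20 genes had a ratio below 0, and in glycolysis 7 of 16, beside 4690 of all 8547 genes compared. Ratios also followed transcript length over all genes (Spearman rho 0.27 over 8472 genes in the same 2 libraries, which are not independent), with a median of −0.39 for the 826 genes under 1500 nt and 0.19 for the 1420 of 6000 nt or more. With that trend removed the medians were 0.13 for glycolysis and 0.0053 for the TCA cycle, beside 0.011 for all genes. The gap between the cycle and all genes was then close to 0.

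**Figure D4:**
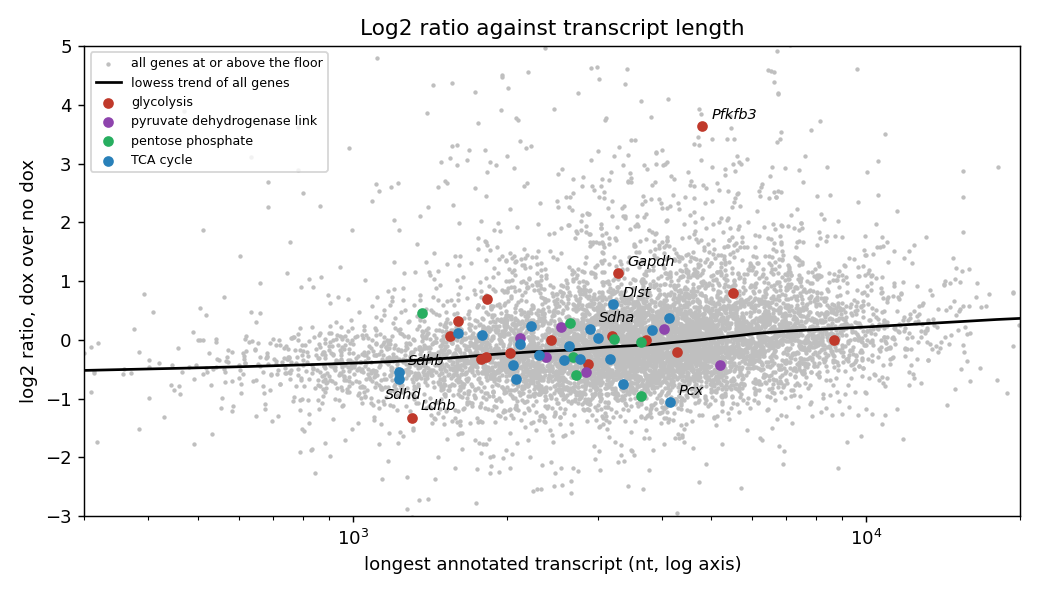
Log2 ratio (dox over no dox) against the length of the longest annotated transcript (log axis) for all genes compared (grey, points beyond the axes are not drawn) and the members by route, with the lowess trend of all genes. The short transcripts of Ldhb, Sdhb and Sdhd lie where the trend is below 0.

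Transport of sugar and lactate was taken from a list of 12 genes, of which 6 were compared, and 0 passed 2-fold, beside 9.23% of all genes higher and 5.49% lower. The main glucose transporter genes had ratios of opposite sign. Slc2a1, the widespread transporter, stood at 795 with dox and 519 without dox (log2 ratio 0.61), and Slc2a3, a transporter of high affinity, at 1007 and 1701 (−0.75). The lactate transporter gene Slc16a1 had 256 with dox and 353 without dox, Bsg, which encodes its partner protein, 770 and 827, and Slc16a3, under the floor, 32 and 11.

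In the list of gluconeogenesis and glycogen genes 2 of 12 were higher by 2-fold or more with dox and 0 lower, against 9.23% and 5.49% of all genes, with a median of −0.03. Fbp2, the muscle-type fructose bisphosphatase that opposes phosphofructokinase, was listed at 172 with dox and 32 without dox, and the phosphoglucomutase gene Pgm2 at 68 and 24. Tigar, which degrades the activating fructose bisphosphate that Pfkfb3 makes, stood at 219 with dox and 428 without dox (−0.94), within 2-fold, and was singled out by its values. In the list of citrate, malate and glutamine exchange 1 of 18 was higher (against 9.23% of all genes) and 0 lower (against 5.49%), with a median of 0.09. The higher gene was Got1, the cytosolic aspartate aminotransferase of the malate shuttle, at 1274 with dox and 555 without dox. Its mitochondrial partner Got2 had 712 with dox and 628 without dox.

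Among 15 regulators of glucose metabolism 0 were higher by 2-fold or more with dox and 2 lower, against 9.23% and 5.49% of all genes, with a median of 0.01. The lower ones were Mycn, whose product can drive glycolytic genes, at 57 with dox and 189 without dox, and the deacetylase gene Sirt1, at 155 and 327. Also singled out by their values, Hif1a, which encodes the hypoxia-inducible factor subunit, stood at 877 with dox and 465 without dox (0.90). Epas1, which encodes another alpha subunit of these factors, stood at 141 with dox and 248 without dox (−0.77). Txnip, a restraint on glucose uptake, stood at 369 with dox and 190 without dox (0.92). Myc was under the floor, at 4 with dox and 34 without dox. In the list of further paralogs 2 of 11 were higher, Pfkfb2 and Pfkfb4, and 0 lower, against 9.23% and 5.49% of all genes, with a median of −0.24. As said above, Pfkfb2 and Pfkfb4 reached the floor only with dox, so this count is not independent of it.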

How the data were processed

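Total RNA from 2 suspension cultures of mouse ES cells was extracted with TRIzol and sequenced on a NextSeq 500 after TruSeq library preparation, per the labels' protocols. The submitters' processing notes name bcl2fastq, Bowtie2, RSEM and the build mm10, without versions, and the annotation, normalization and gene filter are not stated there. The deposited values were handled as a score that the authors had probably normalized and rounded, since both libraries share quartiles and 75.5% of sorted positions (tolerance 0). They were not used as counts, and depth is unknown.

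From these values log2((dox + 10)/(no dox + 10)) was computed for genes whose larger value was at least 50, and called at 2-fold. Symbols were matched to GENCODE M21 (GRCm38), which gave coordinates and lengths for all 52 members. The length trend used lowess (fraction 0.3). Near-identical transcripts were sought with BLAST 2.17.0 (at least 95% identity over 500 nt), which found 13 members with such a match in another gene, 7 of them with one among the rows. For Pfkp, Pgls and Rpe the match among the rows was Pitrm1, Fam129c and Kansl1l in turn. Exons of these genes overlap those of the member, so they need not be separate copies. Exons of 12 members overlap a gene on the opposite strand. Promoters came from RefSeq. Protein sequences were not used here.

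Values are given for members past 1.5-fold, for paralogs, and for the extremes of each route, and in other lists for up to 4 genes, those past 2-fold or with the largest values. Further genes of those lists and the pairs whose ratios are given were picked with their values known. The members and lists were chosen with earlier results of these data known. No column was left unused (0). The steps were tested on simulated data and run in Python 3.11.15 with pandas 2.3.3, numpy 2.4.6, statsmodels 0.14.6 and matplotlib 3.10.9.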

Additional observations from a re-analysis of the deposited data

How the results depend on the processing

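No paired analysis was possible because each group has 1 library. Pfkfb3 and Gapdh stayed at least 2-fold higher wherever they were kept. The ratio of Gapdh is a gap between steps of the scale, and Pfkfb3 reached the floor of 50 only with dox. That these genes stayed is therefore no further support for a difference. A floor of 250 removes Pfkfb3, leaving 1 member higher, and leaving out genes on the highest step removes Gapdh, leaving 1. Members 2-fold lower numbered 1 with a pseudocount of 50 and with the median of all genes set to 0, where Pcx had −0.62 and −0.98. They also numbered 1 with a floor of 250, which removes Pcx, and with the length trend removed. With a pseudocount of 1 Rpia passed 2-fold, at −1.11. At 1.5-fold, 5 members were higher and 7 lower, and 1425 and 1511 of all genes. Over all genes, 498 were higher and 171 lower with a pseudocount of 50, 1255 and 796 with no floor, and 298 and 147 with a floor of 250. That floor gave medians of −0.42 for the pyruvate dehydrogenase step and 0.16 for the pentose phosphate pathway, and a difference of 0.24 between that pathway and the TCA cycle. With the length trend removed the medians were 0.13 for glycolysis, 0.072 for the pyruvate dehydrogenase step and 0.0053 for the TCA cycle. Glycolysis and the pentose phosphate pathway stayed above the TCA cycle under all alternatives run for these differences, by 0.09 to 0.25 and by 0.04 to 0.24, and also by shift in rank. Ratios of 6 members change sign under at least 1 alternative, Eno1, Fh1, Mdh1, Pfkl, Pfkp and Pgd. With 1 library per group and a rank-like scale, small ratios such as these cannot be told from the noise between libraries, which is unknown.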
